A study of Mus musculus with 16 samples.

Results

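The proteasome subunit genes are the 45 protein-coding genes of the GENCODE M21 annotation whose symbols begin with Psma, Psmb, Psmc, Psmd or Psme followed by a digit, out of 22009 protein-coding genes and 51060 genes of any type that the transcripts of these libraries belong to. The proteasome is the large protease that degrades proteins tagged with ubiquitin. Its 20S core is a barrel of outer rings of alpha subunits, which gate the entry, and inner rings of beta subunits, of which PSMB5, PSMB6 and PSMB7 cut peptide bonds. A 19S cap of ATPases, which unfold the substrate, and of lid and receptor subunits, which bind ubiquitin and remove it, sits on the barrel, and PSME proteins can take the cap's place. In cells exposed to interferon, and in many immune cells, the inducible PSMB8, PSMB9 and PSMB10 replace PSMB5, PSMB6 and PSMB7 to form the immunoproteasome. In brown fat the proteasome is known to be raised by cold, largely through the transcription factor NFE2L1.

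RNA was sequenced from brown adipose tissue (BAT) of 7-week-old mice at ambient temperature on regular chow, with 4 mice in each combination of genotype and sex. OPA1 BKO mice (the KO libraries, Opa1-flox Cre+) carried floxed alleles of Opa1, the gene for the inner mitochondrial membrane fusion protein optic atrophy 1, and a Cre transgene driven by the Ucp1 promoter. WT mice (Opa1-flox Cre-) were littermates with the floxed alleles and without Cre, so the controls share the floxed alleles but not the transgene. Cre acts in cells that express Ucp1, the thermogenic adipocytes, whereas the RNA came from whole tissue, in which the other cells keep Opa1. Fewer cells of a type and less RNA per cell cannot be told apart in such samples.

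The authors quantified the reads with Kallisto as estimated counts and transcripts-per-million (TPM) values for each transcript. Both were summed per gene here. Levels below are counts-per-million (CPM) after TMM normalization, which sets the scale so that the bulk of genes does not shift between mice, or TPM where genes are compared with each other, since TPM is corrected for length. Total estimated counts ranged from 13607283 to 23114534 per mouse. A gene was called different between genotypes at an adjusted p-value under 0.05 in the quasi-likelihood test of edgeR with sex as a term, adjusted by the Benjamini-Hochberg method over the 15632 genes tested. Opa1 (chr16:29579334-29654884, plus strand) was between 152 and 209.6 CPM in the 8 WT mice and between 17.9 and 36.9 CPM in the 8 OPA1 BKO mice, which gave a log2 fold change of -2.82 ± 0.15 (SE, adjusted p = 7.35e-10), in the direction of the labels. The thermogenic markers Ucp1, with means of 4758 ± 1319 and 3436 ± 1075 CPM, and Cidea, at 1946 ± 318 in WT and 1430 ± 175 CPM in OPA1 BKO tissue (SD, n = 8), were abundant in both genotypes. Cidea was called lower (log2 fold change -0.43, adjusted p = 0.00313) and Ucp1 did not pass (-0.46, adjusted p = 0.0738).

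The scale matters for every direction given here. Transcripts of the mitochondrial genome took 26.5% ± 2.41 of the counts in WT and 6.71% ± 1.54 in OPA1 BKO mice (SD, n = 8), which leaves a larger share of the reads for all other genes in OPA1 BKO mice. The median log2 fold change over all genes was 0.01 with TMM. It became 0.22 when only nuclear counts were scaled, 0.57 with library size alone, 0.81 for log2(TPM + 0.5) and 0.92 for log2(TPM + 0.1). Higher and lower below therefore mean relative to the other genes of the same mice. On library size alone 36 members came out higher and 0 lower, where 69.5% and 2.39% of all genes did. On nuclear counts 18 were higher and 3 lower, beside 38.9% and 8.5% of all genes. On TPM with either pseudocount all 42 tested members were higher, beside 86.2% of all genes higher and 0.755% lower with a pseudocount of 0.5, and 86.1% and 0.768% with 0.1.

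Of the 45 members, 42 passed the filter on low counts. The 3 that did not are the testis subunit gene Psma8, the thymus subunit gene Psmb11 and Psme2b, a copy of Psme2, whose estimated counts did not exceed 18 in any mouse. With TMM, 15 of the 42 were lower and 6 higher in OPA1 BKO mice, where 20.2% of all genes tested were lower and 20.8% were higher. The changes were small. The median absolute log2 fold change of the members was 0.21, beside 0.28 for all genes tested, and none exceeded 0.52.

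The lower members were mostly core subunits and the higher ones mostly cap subunits. All 7 alpha genes tested and 5 of 7 constitutive beta genes were lower and 1 beta gene, Psmb5, was higher. Of 17 cap genes of base and lid, 12 passed in neither direction, 4 were higher and 1 was lower. Of all genes tested 20.8% were higher and 20.2% lower, so the count of higher cap genes lay near the share of all genes. Among those 4, the calls of Psmd7 and Psmd12 were lost without certain single mice, as given below. Median log2 fold changes were -0.33 for the alpha ring, -0.30 for the constitutive beta ring, 0.06 for the ATPases, 0.07 for the other base subunits and 0.01 for the lid. Relative to the median of all genes, 13 of the 14 core genes lay below 0 with TMM, with nuclear counts and with library size alone, although 13 of the same 14 were called higher on library size alone, where 69.5% of all genes were.

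**Figure D1:**
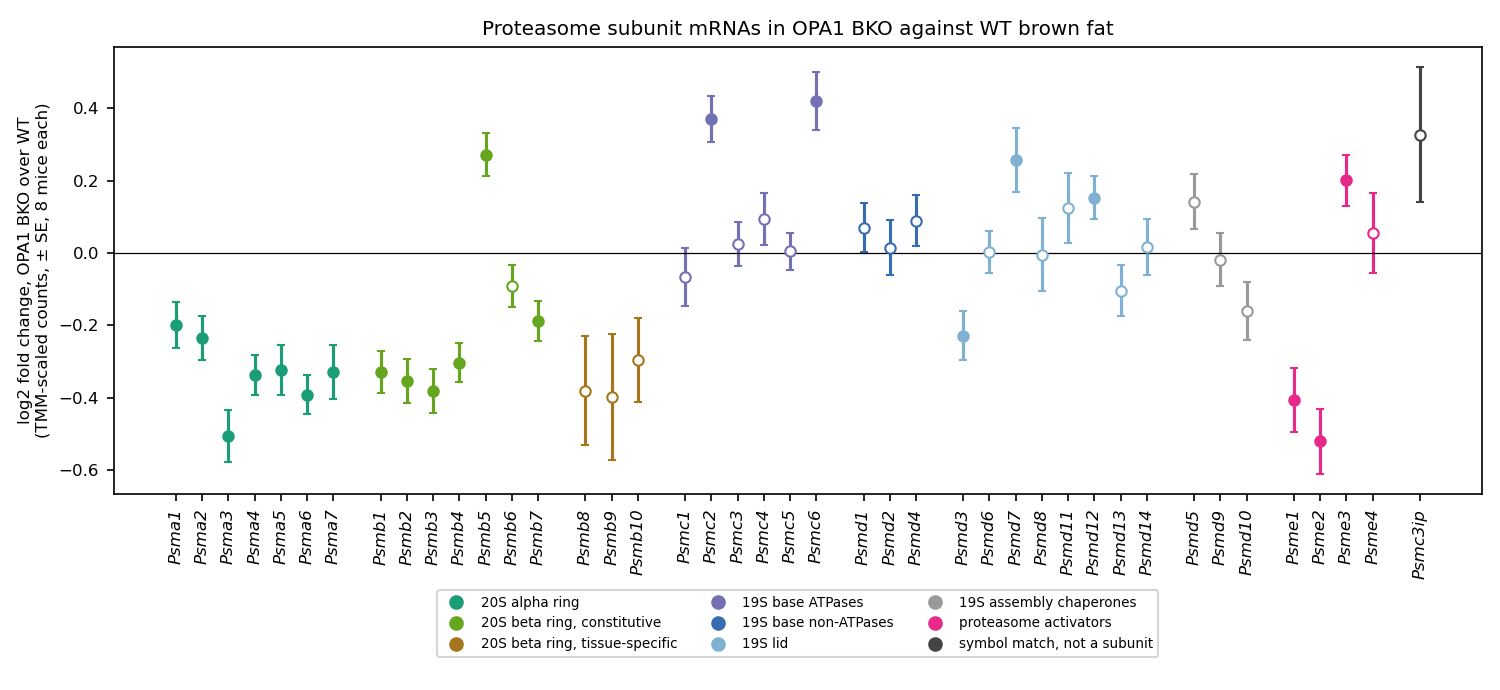
Log2 fold change of the 42 tested members in OPA1 BKO over WT mice by class (TMM-scaled counts, bars are SE, 8 mice per genotype). Filled points passed an adjusted p-value of 0.05. The alpha genes lie between -0.51 and -0.20 and the cap ATPases between -0.07 and 0.42. With library size alone as the scale, the median of all genes is 0.57, and 36 members and 69.5% of all genes are called higher.

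By length-corrected level in WT mice, the core genes ran from 47.3 TPM (Psma5) to 179 TPM (Psmb3), the base and lid genes of the cap from 31.4 TPM (Psmd1) to 135 TPM (Psmd8), the tested activators from 15.5 TPM (Psme4) to 171 TPM (Psme2) and the tested inducible beta genes from 15.7 TPM (Psmb9) to 35.9 TPM (Psmb10).

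The alpha ring opens and closes the gate of the barrel. Psma3 (chr12:70974621-70996347, plus strand) stood at 106.6, 120.7, 124.6 and 100.7 CPM in WT females and at 152.6, 139.6, 131.9 and 142.0 CPM in WT males. It stood at 81.1, 81.2, 97.1 and 93.1 CPM in OPA1 BKO females and at 88.1, 87.5, 86.3 and 98.8 CPM in OPA1 BKO males. Every OPA1 BKO mouse was below every WT mouse, as for 4.89% of all genes tested, and the log2 fold change was -0.51 ± 0.07 (adjusted p = 4.22e-05). Psma6 (chr12:55384222-55418454, plus strand), the most abundant alpha mRNA by TPM, also separated the genotypes, with 132.2 to 181.7 CPM in WT (median 155.5) and 108.7 to 129.3 CPM in OPA1 BKO mice (median 116), and fell by 0.39 on the log2 scale (SE 0.05, adjusted p = 3.03e-05). Psma5, the least abundant by TPM, was between 48.4 and 71.1 CPM in WT and between 42.6 and 55.5 CPM in OPA1 BKO mice. It and the other 4 overlapped between genotypes and fell by 0.20 (Psma1) to 0.34 (Psma4), and each of the 7 calls held with any single mouse left out.

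The beta ring holds the peptidases. Psmb3 (chr11:97703399-97713500, plus strand), which does not cut, was between 112.3 and 157.4 CPM in WT (median 127) and between 82.6 and 123.7 CPM in OPA1 BKO mice (median 97.0), a log2 fold change of -0.38 ± 0.06 (adjusted p = 0.000122). Psmb1, the least abundant of the ring by TPM, ran from 100.5 to 135.2 CPM in WT and from 82.9 to 103.3 CPM in OPA1 BKO mice. The other non-catalytic genes Psmb1, Psmb2 and Psmb4 fell by 0.33, 0.35 and 0.30 on the log2 scale. Of the catalytic genes, Psmb7, for the trypsin-like site, was between 137.1 and 175.2 CPM in WT and between 120.7 and 158.4 CPM in OPA1 BKO mice and fell by 0.19 (SE 0.06, adjusted p = 0.0129). Psmb6, for the caspase-like site, was between 91.2 and 130.4 CPM in WT and between 89.2 and 126.7 CPM in OPA1 BKO mice, and its log2 fold change was -0.09 with a 95% interval from -0.21 to 0.02 (adjusted p = 0.223).

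Psmb5 (chr14:54614119-54618022, minus strand), for the chymotrypsin-like site, went the other way. It stood at 93.4, 109.5, 92.3 and 93.0 CPM in WT females and at 115.4, 112.1, 107.0 and 106.6 CPM in OPA1 BKO females. Among males it stood at 143.1, 128.8, 117.3 and 120.7 CPM in WT and at 157.0, 158.9, 177.8 and 160.3 CPM in OPA1 BKO mice. The genotypes did not overlap among males and overlapped in females through WT female 2. Groups of 4 mice separate more easily than groups of 8, and the share of all genes that did so among males is not given. The log2 fold change was 0.27 ± 0.06 (adjusted p = 0.00198), with 0.18 in females (adjusted p = 0.129) and 0.36 in males (adjusted p = 0.0031) and no interaction of genotype and sex (adjusted p = 0.551). Without the term for sex the call of Psmb5 was lost. In length-corrected units Psmb5 ranked 3rd to 6th among the 7 constitutive beta genes in the WT mice and 1st in 6 of 8 OPA1 BKO mice, the exceptions being OPA1 BKO females 3 and 4, where it ranked 3rd.

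**Figure D2:**
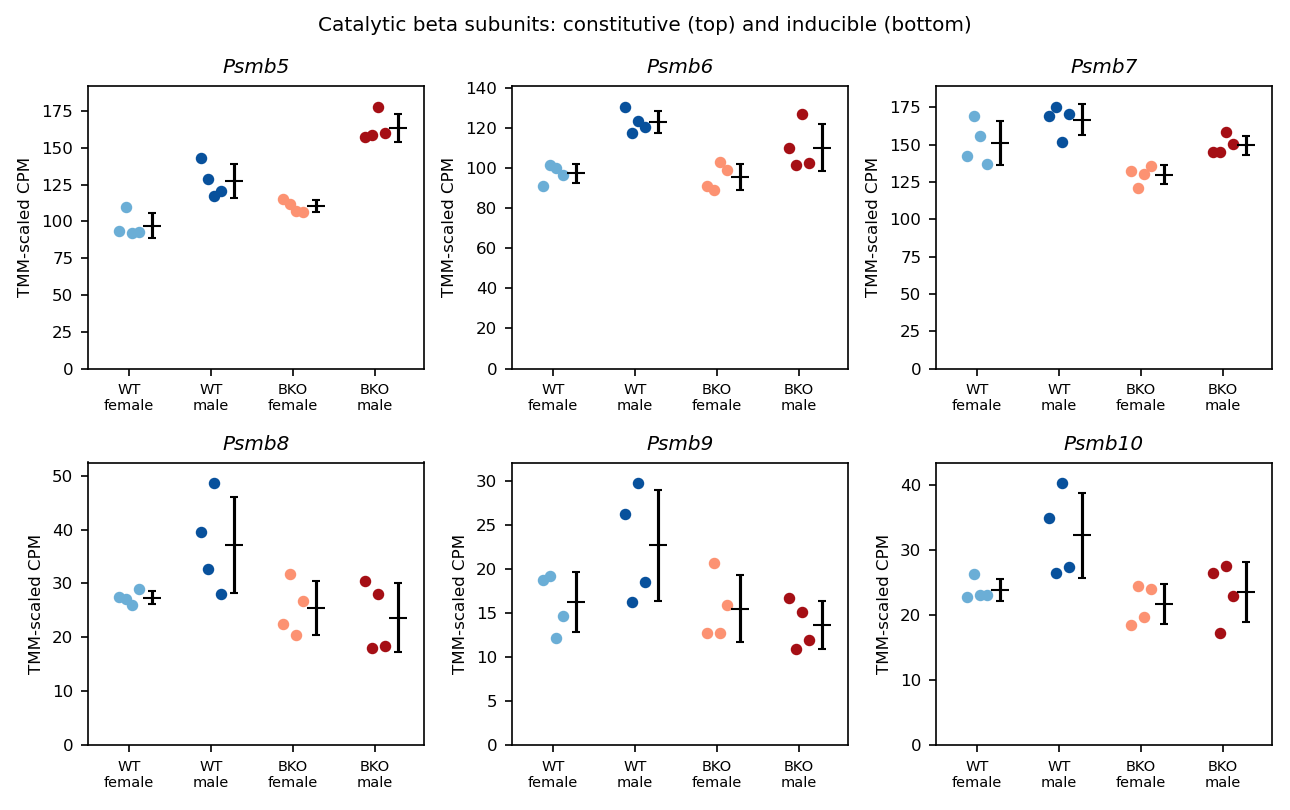
TMM-scaled CPM of the constitutive (Psmb5, Psmb6, Psmb7) and inducible (Psmb8, Psmb9, Psmb10) catalytic subunit genes in each mouse. Points are mice, and the bar beside them is the mean ± SD of 4. Psmb5 is between 157 and 178 CPM in OPA1 BKO males and between 117 and 143 CPM in WT males. On library size alone the OPA1 BKO values would all rise relative to WT.

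Of the words of 31 bases in Psmb5 transcripts, 71.7% also occur in other genes, chiefly the processed pseudogene Gm3375, so reads could be split between them. The counts of 2 such pseudogenes added to Psmb5 moved its mean from 112.27 to 112.33 CPM in WT and from 136.9 to 137.0 CPM in OPA1 BKO mice, and left the log2 fold change at 0.27. The same share was 60.96% for Psma5 and 20.2% for Psma3, whose log2 fold change became -0.44 with its 3 pseudogenes added.

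The ATPases of the cap form a ring that pulls substrates into the barrel. Psmc6 (chr14:45329788-45349705, plus strand) stood at 80.1, 97.5, 90.3 and 77.2 CPM in WT females and at 85.7, 95.4, 64.7 and 78.5 CPM in WT males. It stood at 108.1, 112.8, 119.2 and 101.9 CPM in OPA1 BKO females and at 108.1, 125.2, 99.7 and 120.3 CPM in OPA1 BKO males. The lowest OPA1 BKO mouse exceeded the highest WT mouse, as for 5.07% of all genes tested. Its log2 fold change of 0.42 ± 0.08 (1.34-fold, adjusted p = 0.000646) was the highest of the called members. Psmc2 (chr5:21785283-21803787, plus strand) followed with 65.5 to 80.9 CPM in WT (median 72.0) and 80.9 to 114.5 CPM in OPA1 BKO mice (median 89.6), a log2 fold change of 0.37 ± 0.06 (adjusted p = 0.000276). The counts of 44 processed pseudogenes sharing words with Psmc2, once added, moved its mean from 72.1 to 119.2 CPM in WT and from 93.6 to 144.8 CPM in OPA1 BKO mice. The log2 fold change then became 0.28. Psmc2 and Psmc6 were also the only 2 members called higher in females alone. The other 4 ATPase genes did not pass, with log2 fold changes from -0.07 (Psmc1) to 0.09 (Psmc4). Psmc1, the most abundant ATPase mRNA by TPM in WT mice, ran from 87.3 to 122.7 CPM in WT and from 86.3 to 120.8 CPM in OPA1 BKO mice. By mean TPM in OPA1 BKO mice Psmc6 was the most abundant, at 142 TPM beside 130 TPM for Psmc1.

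Among the other cap genes, the scaffold and ubiquitin receptor genes Psmd1, Psmd2 and Psmd4 did not pass, with log2 fold changes of 0.07, 0.01 and 0.09. Psmd1 ran from 90.5 to 127.3 CPM in WT and from 103.1 to 123.1 CPM in OPA1 BKO mice, and Psmd4 from 104.3 to 149.96 and from 110.8 to 178.6 CPM, so that both overlapped. In the lid, Psmd3 was lower (log2 fold change -0.23 ± 0.07, adjusted p = 0.0126) and Psmd7 and Psmd12 were higher (0.26 ± 0.09, adjusted p = 0.0268, and 0.15 ± 0.06, adjusted p = 0.0475). The call of Psmd7, the partner of the deubiquitinase PSMD14, was lost without WT female 1, WT male 4 or OPA1 BKO male 3, with adjusted p-values up to 0.0555. That of Psmd12 was lost without any of the 12 mice other than WT females 2 and 3, WT male 2 and OPA1 BKO male 1, with adjusted p-values up to 0.102. Psmd14, which removes ubiquitin from substrates, had a log2 fold change of 0.02 with a 95% interval from -0.13 to 0.17. Psmd8, the most abundant lid mRNA by TPM, ran from 142.8 to 290.6 CPM in OPA1 BKO mice, highest in OPA1 BKO male 3, and from 162.3 to 217.6 CPM in WT mice, with an estimate of -0.00 ± 0.10. Psmd11, the least abundant lid mRNA, ran from 61.8 to 103.3 CPM in WT and from 77.3 to 96.7 CPM in OPA1 BKO mice and had a log2 fold change of 0.12 ± 0.10 and did not pass. The assembly chaperone genes Psmd5, Psmd9 and Psmd10, which guide the base together and are not part of the finished particle, were at 5.03 (Psmd10) to 12.6 TPM (Psmd5) in WT mice and did not pass. Psmd5 ran from 20.7 to 30.0 CPM in WT and from 26.3 to 33.9 CPM in OPA1 BKO mice, and Psmd10 from 6.14 to 8.76 and from 6.06 to 8.02 CPM. Psmc3ip, which shares the letters of the symbol but encodes a meiotic recombination cofactor, averaged 1.67 in WT and 2.09 CPM in OPA1 BKO tissue and did not pass either.

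The activators fell into 2 patterns. Psme1 and Psme2 encode the interferon-inducible activator, and both were lower. Psme2 (chr14:55587441-55591113, minus strand) was at 100.4 to 130.0 CPM in WT females, 123.7 to 172.1 CPM in WT males, 83.3 to 99.8 CPM in OPA1 BKO females and 82.8 to 109.3 CPM in OPA1 BKO males. The genotypes overlapped only in that WT female 3, at 100.4 CPM, lay below OPA1 BKO male 3, at 109.3 CPM. Its log2 fold change of -0.52 ± 0.09 (adjusted p = 0.00025) was the most negative of the members. Psme1, for its partner, lies beside it (chr14:55578123-55581529, plus strand) and was between 76.7 and 128.9 CPM in WT and between 55.9 and 86.6 CPM in OPA1 BKO mice, with WT male 3 the highest and a log2 fold change of -0.41 ± 0.09 (adjusted p = 0.00156). Psme3, the nuclear activator that is not induced by interferon, was higher (0.20 ± 0.07, adjusted p = 0.031). It was at 68.4 to 85.7 CPM in WT males and 99.7 to 107.8 CPM in OPA1 BKO males. In females it was at 76.7 to 90.3 CPM in WT and 83.6 to 88.6 CPM in OPA1 BKO mice. Its log2 fold change was 0.39 in males (adjusted p = 0.00115) and 0.01 in females (adjusted p = 0.922), and the interaction did not pass (adjusted p = 0.146). The Psme3 call was lost without WT males 1, 2 or 3, WT female 2 or any OPA1 BKO male, with adjusted p-values up to 0.0639. Psme4, for a chromatin-linked activator, was between 72.2 and 135.5 CPM in WT and between 93.7 and 126.7 CPM in OPA1 BKO mice, and had a log2 fold change of 0.06 with a 95% interval from -0.16 to 0.27.

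**Figure D3:**
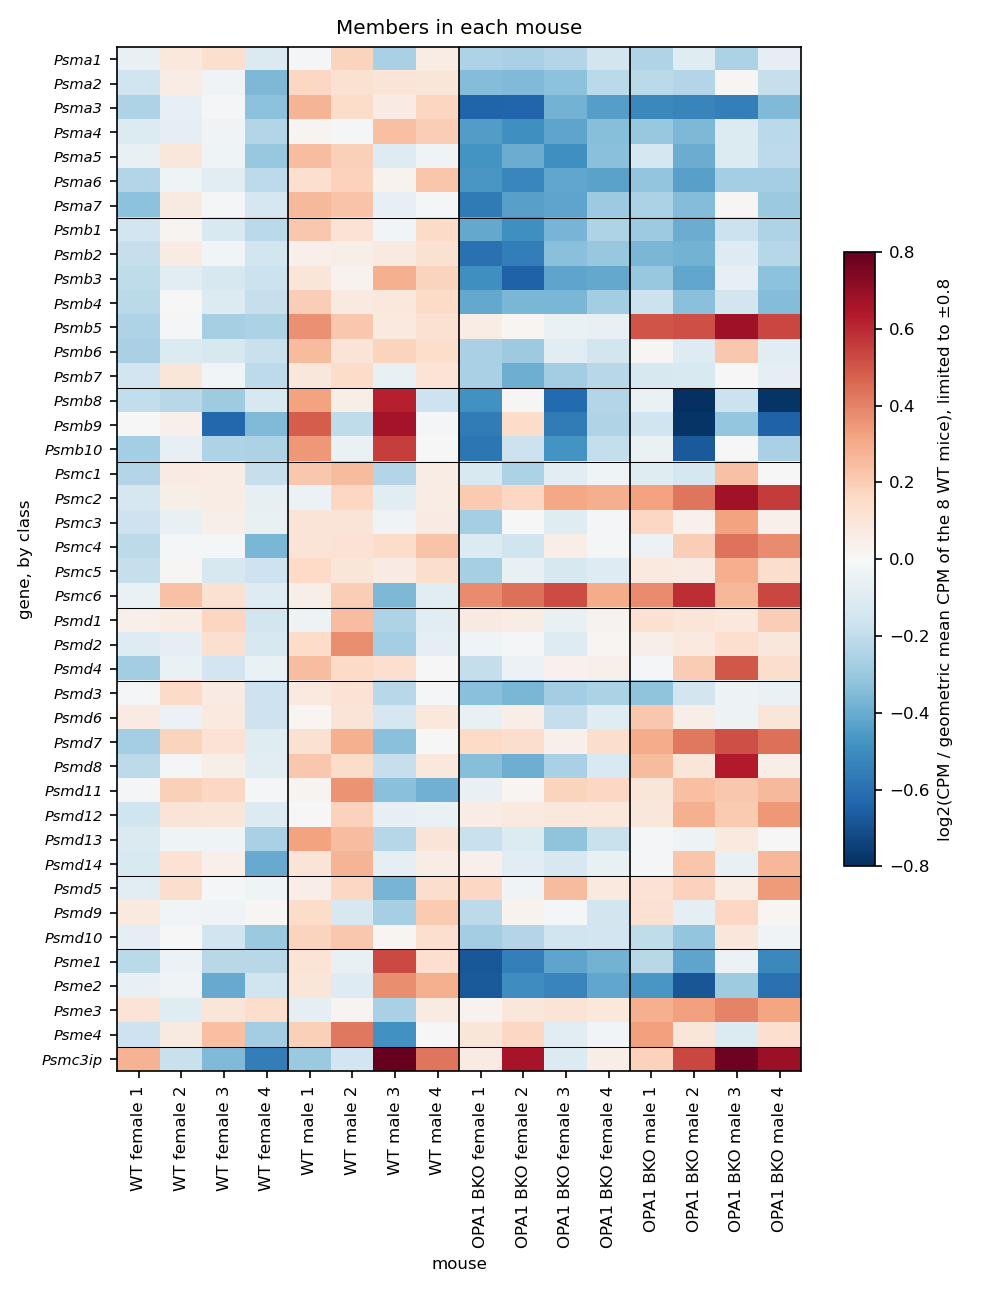
Log2 ratio of each tested member's CPM to its geometric mean in the 8 WT mice, 1 column per mouse and 1 row per gene, ordered by class (TMM-scaled). Alpha and most beta genes are blue (lower) in OPA1 BKO mice, Psmc2 and Psmc6 are red (higher) in all 8 of them, and Psmb5 is red in the OPA1 BKO males. On library size alone all OPA1 BKO columns would be redder.

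The inducible subunits of the immunoproteasome were less abundant than the constitutive ones. In WT mice, Psmb8 (chr17:34197721-34201454, plus strand), Psmb9 (chr17:34181987-34187764, minus strand) and Psmb10 (chr8:105935735-105938444, minus strand) made up 13.2% to 21.7% of the summed TPM of the 6 catalytic genes, and 9.47% to 17.7% in OPA1 BKO mice. Psmb8 was at 27.5, 27.0, 25.9 and 28.9 CPM in WT females, 39.5, 32.6, 48.6 and 28.1 CPM in WT males, 22.6, 31.8, 20.5 and 26.8 CPM in OPA1 BKO females and 30.4, 17.9, 28.0 and 18.3 CPM in OPA1 BKO males. WT male 3 was the highest and OPA1 BKO males 2 and 4 the lowest, and the genotypes overlapped. Psmb9 was between 12.1 and 29.7 CPM in WT (median 18.7) and between 10.9 and 20.7 CPM in OPA1 BKO mice (median 13.9), and Psmb10 between 22.7 and 40.2 CPM (median 26.3) and between 17.2 and 27.5 CPM (median 23.5). WT male 3 was the highest for these genes too. The log2 fold changes of Psmb8, Psmb9 and Psmb10 were -0.38 ± 0.15, -0.40 ± 0.17 and -0.30 ± 0.12. None passed with all mice in the main edgeR fit (adjusted p = 0.0533, 0.0767 and 0.0500013). In males all 3 were lower (log2 fold changes of -0.65, -0.73 and -0.45, adjusted p = 0.017, 0.018 and 0.0351), where 16.9% of all genes were. The calls in males without WT male 3 are not given. In females the 3 genes were at -0.11, -0.06 and -0.14 and did not pass. The difference between the sexes did not pass for any of the 3 (the lowest adjusted p, for Psmb9, was 0.375).

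The immunoproteasome calls depended on the fit and on single mice. With all mice, 2 of the 3 genes passed as lower under DESeq2 and 2 with summed skeletal muscle markers as a term. Without the term for sex 1 passed, and with pseudogene counts added Psmb10 passed narrowly (edgeR adjusted p = 0.0498). Psmb8 passed without WT female 3, WT male 4, OPA1 BKO female 2, OPA1 BKO female 4 or OPA1 BKO male 1. Psmb9 passed without WT female 3 or OPA1 BKO female 2. Psmb10 passed without any of WT females 1 and 4, WT males 2 and 4, OPA1 BKO females 2 and 4 and OPA1 BKO male 3, and adjusted p-values over all such removals ran from 0.0198 to 0.154 for the 3 genes. Psmb9 overlaps Tap1 on the other strand, and 4.83% of the words in Psmb9 transcripts also occur in Tap1. Reads that lie within this shared sequence cannot be told apart if the strand was not used in quantification. The sources used here do not state whether it was.

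Ratios within a mouse do not depend on how mice are scaled to each other. The TPM ratio of Psmb8 to Psmb5, its constitutive counterpart, was 0.198 ± 0.0413 in WT (range 0.155 to 0.286) and 0.129 ± 0.0435 in OPA1 BKO mice (range 0.0736 to 0.199, SD, n = 8). The groups overlapped, and the log2 ratio differed by -0.67 ± 0.20, OPA1 BKO minus WT (exact two-sided permutation test, p = 0.00435, adjusted over 3 ratios 0.0131). Within males the difference was -1.01 (exact permutation p = 0.0286, the smallest that 4 against 4 mice allow), and within females it was -0.32 (exact permutation p = 0.143). Its parts had log2 fold changes of -0.38 (Psmb8) and 0.27 (Psmb5) on the TMM scale. The ratios of Psmb9 to Psmb6 and of Psmb10 to Psmb7 differed by -0.30 ± 0.20 and -0.10 ± 0.15 on the log2 scale and did not pass (exact permutation p = 0.149 and 0.520, adjusted 0.223 and 0.520).

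The balance of core to cap was described in the same way. The summed TPM of the 14 core genes was 1.59 ± 0.0829 times that of the 17 cap genes in WT mice and 1.29 ± 0.0401 times in OPA1 BKO mice (SD, n = 8). WT females lay between 1.49 and 1.57, WT males between 1.54 and 1.73, OPA1 BKO females between 1.28 and 1.33 and OPA1 BKO males between 1.24 and 1.35, so the genotypes did not overlap. Within the cap, the geometric mean of Psmc2 and Psmc6 was 0.553 to 0.763 times that of the other 4 ATPases in WT and 0.788 to 0.946 times in OPA1 BKO mice, again without overlap. No pseudogene counts were added to Psmc2 in this ratio. Within the beta ring, Psmb5 was 0.926 to 1.22 times the geometric mean of the other 6 genes in WT mice and 1.22 to 1.84 times in OPA1 BKO mice, with OPA1 BKO female 4 just below WT male 1. These 3 ratios were formed after the fold changes of their genes were seen and are given without a test.

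**Figure D4:**
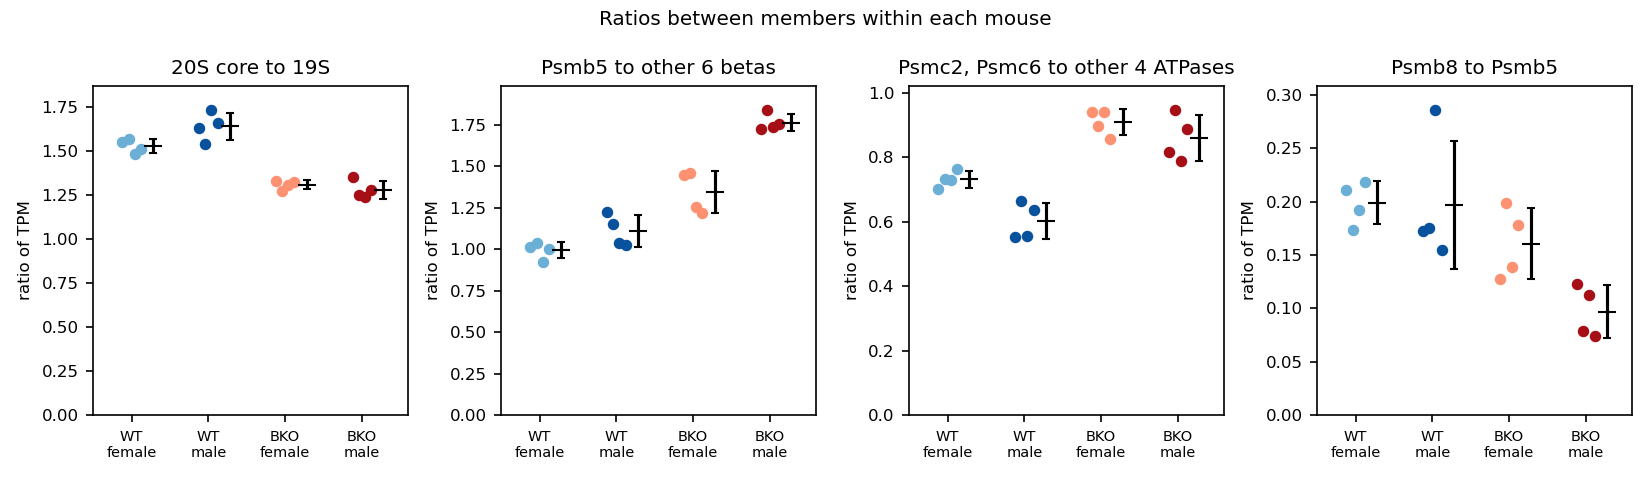
TPM ratios within each mouse: summed 20S core to summed 19S genes, Psmb5 to the geometric mean of the other 6 constitutive beta genes, Psmc2 and Psmc6 to that of the other 4 ATPases, and Psmb8 to Psmb5. Points are mice and the bar is the mean ± SD of 4. The core-to-cap ratio is at most 1.35 in OPA1 BKO mice and at least 1.49 in WT mice.

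Transcript length differed between core and cap, and length went with the fold change over all genes. Genes with an effective length of 500 to 750 bases had a median log2 fold change of -0.18 and those over 5000 bases one of 0.12. Core transcripts had a median effective length of 864 bases and cap transcripts one of 1296 bases. Across the 42 members Spearman's correlation of log2 fold change and length was 0.56, and across all 15632 genes 0.17, as a description of genes that share libraries and length bias. Between 1000 and 2000 bases, where 22.8% of all 4612 genes were lower and the median was -0.02, all 4 core genes (Psma1, Psma2, Psma5, Psmb1) were lower, with a median of -0.28, and 1 of 15 cap genes was lower, with a median of 0.03. In the shorter classes, where 10 core genes and no cap genes lie, 8 core genes were lower. Between 500 and 750 bases 3 of 5 core genes were lower, beside 33.4% of all genes. Between 750 and 1000 bases 5 of 5 core genes were lower, beside 29.8% of all genes. The part of length in the contrast was not tested beyond these values.

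**Figure D5:**
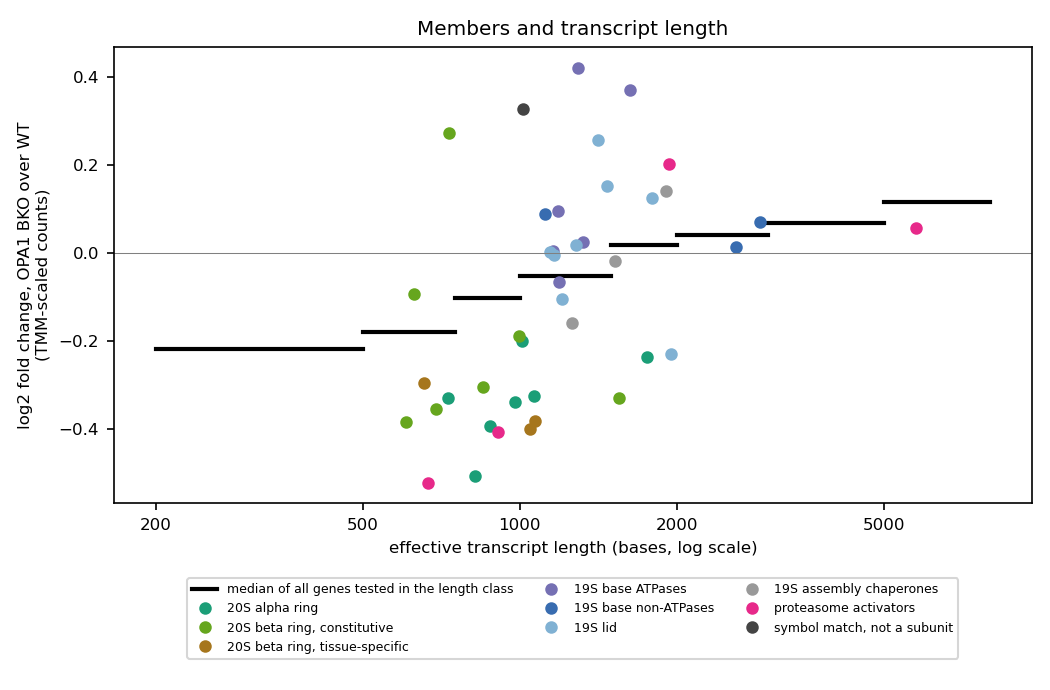
Log2 fold change of the tested members (points, by class) against effective transcript length, with the median of all genes tested in each length class (black lines, TMM-scaled counts). The medians of all genes run from -0.22 below 500 bases to 0.12 above 5000 bases, and most core genes lie below the line of their length class. Other scalings move points and lines together.

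The sexes were also compared between genotypes separately. In females 2 members were higher and 11 lower, where 8.96% and 9.03% of all genes were called. In males 5 were higher and 15 lower, where 17.9% and 16.9% were called. The 2 sexes had the same sign for 35 of 42 members, and no member passed the test of the interaction, which 0.115% of all genes passed (4 members had an unadjusted p under 0.05, namely Psma3, Psmb9, Psmd8 and Psme3). Among WT mice no member differed between the sexes after adjustment by edgeR, although 19 had an unadjusted p under 0.05, with the lowest adjusted p for Psmb5 at 0.0597. Shares of all genes with an unadjusted p under 0.05 are not given for either test. The counts of 4 and 19 are therefore not results about the members.

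Promoters were read from RefSeq (GRCm38.p6, the build of the labels' mm10), as windows of 250 bases before to 50 after the start site, for the 38 members that have an entry. Proteasome genes are known targets of NFE2L1, which binds antioxidant response elements, and the core of that element, TGACNNNGC or TGAGNNNGC on either strand, occurred in windows of 16 of the 38 members. By window, it was in 17 of the members' 41 (41.5%) and in 27.8% of all 32851. The median GC content was 57.3% in the members' windows and 52.7% in all windows, and the part of GC content in that difference was not tested. The core genes held it in 7 of 11 cases, the cap genes in 5 of 14, the activators in 1 of 5 and the tissue-specific beta genes in 0 of 4. Psmb5, Psmc2 and Psmc6, which have the largest positive log2 fold changes among the called members, are shown first, with the element in capitals, each 5′ to 3′ and only up to the first annotated exon. The Psmc2 window lies inside the gene, before another annotated start site, and its window at the outer start site has no match.
Psmb5, chr14:54618023-54618245, minus strand: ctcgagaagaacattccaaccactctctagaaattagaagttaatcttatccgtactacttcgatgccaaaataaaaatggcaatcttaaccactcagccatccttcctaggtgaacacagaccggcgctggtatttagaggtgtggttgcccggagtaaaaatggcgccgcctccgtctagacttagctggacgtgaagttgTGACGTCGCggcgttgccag
Psmc6, chr14:45329574-45329787, plus strand: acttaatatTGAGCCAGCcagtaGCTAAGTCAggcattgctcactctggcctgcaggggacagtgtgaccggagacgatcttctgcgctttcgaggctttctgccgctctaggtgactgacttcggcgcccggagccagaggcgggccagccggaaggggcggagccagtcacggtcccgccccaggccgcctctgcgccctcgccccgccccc
Psmc2, chr5:21786497-21786649, plus strand: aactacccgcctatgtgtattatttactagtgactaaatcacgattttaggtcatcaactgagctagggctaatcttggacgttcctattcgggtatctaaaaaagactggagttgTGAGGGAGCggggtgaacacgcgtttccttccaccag
For contrast, Psma3 and Psme2, the members with the most negative values, hold no match, while Psma6 fell and does hold it.
Psma3, chr12:70974373-70974620, plus strand: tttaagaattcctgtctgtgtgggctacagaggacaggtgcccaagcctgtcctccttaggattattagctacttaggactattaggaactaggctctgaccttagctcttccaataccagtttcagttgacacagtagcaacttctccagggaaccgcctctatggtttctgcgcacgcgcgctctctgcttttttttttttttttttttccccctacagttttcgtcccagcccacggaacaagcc
Psme2, chr14:55591114-55591351, minus strand: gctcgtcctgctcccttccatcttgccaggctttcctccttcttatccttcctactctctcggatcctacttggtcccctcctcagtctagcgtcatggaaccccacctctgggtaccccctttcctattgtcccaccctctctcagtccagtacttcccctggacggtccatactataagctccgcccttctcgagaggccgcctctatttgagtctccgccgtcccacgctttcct
Psma6, chr12:55383972-55384221, plus strand: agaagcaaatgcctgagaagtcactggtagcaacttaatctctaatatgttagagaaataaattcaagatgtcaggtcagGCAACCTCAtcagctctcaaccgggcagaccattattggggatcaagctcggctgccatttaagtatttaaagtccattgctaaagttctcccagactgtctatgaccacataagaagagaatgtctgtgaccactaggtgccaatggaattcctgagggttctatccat
In Psmb5 the match begins 47 bases before the RefSeq start, in Psmc2 134 bases before it, in Psmc6 241 and 227 bases before it and in Psma6 170 bases before it. A match describes letters, not binding. Windows of Psma4, Psma5, Psma7 and Psmb3, all lower, and of Psmb6, Psmc3ip, Psmd1, Psmd5, Psmd9, Psmd13 and Psme4, which did not pass, hold the element too, as does that of Psmd12, which was higher, so it occurred among members of either direction.

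Other motifs were searched in the same windows. CCAAT, the NF-Y element, occurred in 15 of 38 members and 37.4% of all windows. TGATGNAA, a C/EBP-ATF element, occurred in 1 member (Psmd13) and 3.97% of windows, and TTCNNNGAA, a STAT element, in 2 members (Psmb8 and Psmd2) and 8.30%. GAAANNGAA, a short form of the interferon-stimulated element, occurred in 6 members, Psme1 among them, and 8.56% of windows, and GAANNTTC, a heat shock element, in 2 members (Psmb5 and Psmb9) and 7.86%. Both strands were searched, and the matches of different motifs may overlap.

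Of 10 genes for the transcription factors NFE2L1 and NFE2L2 and for the proteins that process them, 5 were higher and 1 lower, where 20.8% and 20.2% of all genes were, and the median over the list was 0.21 on the log2 scale. Nfe2l1 averaged 443 ± 74.4 in WT and 786 ± 73.5 CPM in OPA1 BKO tissue (SD, n = 8, log2 fold change 0.83 ± 0.10, adjusted p = 1.22e-05). Ddi2, for the protease that cuts NFE2L1 into its active form, rose by 0.60 on the log2 scale (adjusted p = 0.000371), Sel1l by 0.77 and Nfe2l2 by 0.67. Vcp, for the segregase that extracts NFE2L1 from the membrane, rose by 0.20, and Syvn1, for an ER ubiquitin ligase, fell by 0.30. Of 11 tested antioxidant genes that NFE2L2 is known to induce, 8 were higher, among them Gsta3 (log2 fold change 2.60) and Hmox1 (1.07), and Gstm1 was lower. The values of both lists are given relative to TMM, and on library size alone all 10 of the first list, and 69.5% of all genes, came out higher.

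Of 6 genes for factors that assemble or inhibit the core, Psmg1 (-0.38) and Pomp (-0.29), for chaperones of the alpha ring and of the maturing beta ring, were lower, Psmg2 (0.30), for the partner of PSMG1, was higher, and 3 did not pass. Among 13 further cap subunits and bound factors 5 were higher and 2 lower, beside 20.8% and 20.2% of all genes. The higher ones were the shuttle gene Ubqln1 (0.51), Zfand5 (0.58), for an activator of the particle, the ubiquitin ligase gene Ube3c (0.36), Ecpas (0.32) and Txnl1 (0.31), and the lower ones the cap subunit genes Sem1 (-0.49) and Adrm1 (-0.26). Mitochondria have proteases of their own, and of 8 such genes 2 were higher and 3 lower. Lonp1, for the matrix protease LON, went from 212 ± 17.7 to 796 ± 190 CPM (SD, n = 8), a log2 fold change of 1.88 ± 0.11 (adjusted p = 2.2e-09) that exceeds every proteasome member, and Clpp fell by 0.38.

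Class I antigen presentation uses the peptides that the immunoproteasome makes. Of 10 class I genes 3 were lower and 1 higher, counts near the shares of all genes (20.2% and 20.8%). The lower ones were the transporter subunit gene Tap2 (-0.38), Tapbp (-0.50), for the protein that loads peptides, and the trimming peptidase gene Erap1 (-0.31), and the higher one Pdia3 (0.22). Tap1, the neighbour of Psmb9, had a log2 fold change of 0.03 ± 0.20. Of 8 interferon receptor and signalling genes Ifngr1 (-0.43) and Ifnar2 (-0.30) were lower, Ifngr2 (0.49) was higher and Irf1, with -0.13, did not pass.

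Immune cells express inducible subunits strongly, and their markers moved with the genotype. Of 15 immune markers 8 were higher and 4 lower, beside 20.8% and 20.2% of all genes. Their summed level was 110 to 152 CPM in WT and 153 to 549 CPM in OPA1 BKO mice, and 1 of them, Ms4a1, was at 0 in a mouse. The 7 markers of T, B and NK cells summed to 4.64 to 9.15 CPM in WT and 2.39 to 4.44 CPM in OPA1 BKO mice. Of these 7 markers 4 were lower and 0 higher, and Cd3e, Cd8a and Ms4a1 did not pass. The other 8, of macrophages, dendritic cells or all leukocytes, were all higher, with summed levels of 106 to 148 CPM in WT and 149 to 546 CPM in OPA1 BKO mice. This division was made after the values were seen, and the part of these cells in the values of Psmb8, Psmb9, Psmb10, Psme1 and Psme2 was not tested.

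Skeletal muscle markers varied widely between mice. Their summed level ran from 18.3 to 5589 CPM in WT and from 2.91 to 13767 CPM in OPA1 BKO mice, and none of the 6 passed, with log2 fold changes from 1.25 (Pvalb) to 1.497 (Myh4). Without OPA1 BKO male 1 and OPA1 BKO female 2, which had the most, 4 members were higher and 15 lower, where 18.3% and 17% of all genes were. Psma1, Psmb7, Psmd3, Psmd12 and Psme3 then lost their calls, and Psmb8, Psmb9 and Psmb10 passed as lower. With the summed markers as a term in the fit, 5 members were higher and 17 lower, where 21.2% and 20.3% of all genes were. Of 10 brown adipocyte markers 4 were lower and 1 higher, beside 20.2% and 20.8% of all genes. The lower ones were Adipoq (-1.38), Cebpa (-0.94), Fabp4 (-0.80) and Cidea (-0.43), and the higher one was Pparg (0.47). Of 6 endothelial and stromal markers 2 were higher and 2 lower, and the part of either list in the members' values was not tested.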

How the data were processed

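Brown adipose tissue of 16 mice, 4 per genotype and sex by the labels, was sequenced from poly(A) RNA (TruSeq stranded, HiSeq). The authors quantified each library with kallisto 0.45.0 on mm10 and deposited an estimated count, an effective length and a TPM value per transcript. The annotation release and the strand setting are not given in the sources used here. Of 135308 transcripts, 133284 matched GENCODE M21 and were summed per gene, and the other 2024 held 0.483% to 0.730% of the counts and were left out.

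Estimated counts were rounded. Genes were filtered with filterByExpr (minimum count 10, minimum total 15), scaled by TMM and tested with edgeR 4.0.16 (quasi-likelihood, terms for sex and genotype, R 4.3.3), with Benjamini-Hochberg adjustment over all genes tested. Sexes and their interaction came from a model with 4 group means. CPM has no pseudocount, and limma 3.58.1 on log2(TPM + 0.5) and DESeq2 1.42.0 were alternatives. The ratio test was an exact permutation test (scipy 1.17.1). The steps were tested on simulated data. Total counts of 13607283 to 23114534 per mouse limit precision mainly for genes of few counts. Within groups, Spearman's correlation of mice was 0.947 to 0.989, and no pair differed by as little as counting noise. Mice are separate animals by the labels, with no batch given.

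The members, gene lists and tests were chosen with earlier results of these data known. Genes given with values in each mouse or by range were Opa1, Psmb5 to Psmb10, Psme1 to Psme4, the 3 largest changes in each direction among those called, the highest and lowest TPM of each class, and list genes where a list is described. Other members were named where a class is described. A few genes of the lists are not reported here.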

Additional observations from a re-analysis of the deposited data

Results flagged for a closer look

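Values of 29 genes or ratios were examined in each of the 4 groups of 4 mice for a mouse far from the others (Dixon's test at its 95% limit). Of 116 such groups 6 had one, and chance gives about 5.8. Psmb5 stood at 177.8 CPM in OPA1 BKO male 3 beside 157.0 to 160.3 CPM in the other males of that group. In WT female 2, Psmb5 stood at 109.5 CPM, Psmb10 at 26.2 CPM and Psme1 at 86.6 CPM, above the other WT females. Psma3 stood at 98.8 CPM in OPA1 BKO male 4 beside 86.3 to 88.1 CPM in the others. The TPM ratio of Psmb8 to Psmb5 was 0.286 in WT male 3, beside 0.155 to 0.175 in the other WT males. No member had an interaction of genotype and sex past the threshold.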

How the results depend on the processing

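No paired analysis was possible because the labels give no pairs of mice and no replicate numbers, and the numbers used here, given in order within each group, only name a mouse. The main result, 6 members higher and 15 lower, stayed within 1.5 times under RLE size factors, DESeq2, a filter at 1 TPM, length-scaled counts, no term for sex, no filter and pseudogenes added. It depended on the scale. Library size alone gave 36 higher and 0 lower (69.5% and 2.39% of all genes), nuclear counts 18 and 3 (38.9% and 8.5%), and limma on TPM with either pseudocount 42 and 0 (86.2% and 0.755% with 0.5), while females alone gave 2 higher. With each mouse left out in turn, 3 to 6 members were higher and 15 to 18 lower, with 3 higher without OPA1 BKO male 3. The core minus cap difference of medians was -0.35 and ran from -0.42 to -0.28 over all settings. Class medians relative to the median of all genes moved by more than the spread between mice with limma on log2(TPM + 0.5), to -0.18 for the alpha ring, 0.21 for the ATPases, 0.12 for the chaperones and -0.0891 for the activators. The activators' median was 0.0716 without a filter, where the class also held Psme2b with its few counts, so that its membership changed too. These class medians, the difference between core and cap, and the alternatives for the sexes were added after the data were seen.

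In females 13 members differed, with 5 to 15 when a mouse was left out (5 without OPA1 BKO female 1, 6 without OPA1 BKO female 2 or 3, 7 without WT female 3 and 8 without WT female 2), 3 without a filter and 29 on library size alone. In males 20 differed, with 14 to 22 when a mouse was left out and 34 on library size alone, which also gave 1 interaction. Shares of all genes under these settings are not given by sex. With both sexes fitted, library size alone called 69.5% of all genes higher and 2.39% lower, so these counts are not a result about the members. The log2 ratio of Psmb8 to Psmb5 was -0.32 in females alone and -0.77 to -0.56 with a mouse left out. The ratio of Psmb9 to Psmb6 was 0.0115 in females alone and -0.42 to -0.21 with a mouse left out, and passed (exact permutation p = 0.0233) without OPA1 BKO female 2. The ratio of Psmb10 to Psmb7 was 0.13 in females alone and -0.15 to -0.00527 (without WT male 3) with a mouse left out. The cause was not tested.

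Members near 0 changed sign relative to the median of all genes without passing. Psme3 was at -0.000226, Psmd1 at -0.0219 and Psmd11 at -0.0225 in females alone. Psme4 was at -0.0489 and Psmd5 at -0.0012 with length-scaled counts, and Psme4 ran from -0.0203 (without WT male 3) to 0.11 with a mouse left out. Psmd8 was at 0.0096 without a filter, 0.0092 without sex, 0.0052 with length-scaled counts, 0.20 in males, 0.0279 without the 2 mice richest in muscle markers, and -0.10 to 0.0203 with a mouse left out. At most 18 counts per mouse, as for Psma8, Psmb11 and Psme2b, allowed no test.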
